A study of Mus musculus with 36 samples.

Results

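Pluripotency factors are regulators that keep embryonic cells able to form all lineages of the body, and 8 of them were followed from the headfold stage to the end of axis elongation. Pou5f1, Nanog, Utf1, Zscan10, Klf5, Zfp42, Sall4 and Esrrb were picked by name from the 30869 gene symbols of the deposited table, with every probe annotated to them. They have 14 probes, of which 12, covering all 8 genes, were detected on at least 1 array and tested. The 2 remaining probes, ILMN_2433293 of Klf5 and ILMN_2555396 of Esrrb, were detected on no array.

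Total RNA from wildtype MF1 mouse embryos was hybridised to 36 Illumina MouseWG-6 v2.0 arrays, and each array held 6 to 74 pooled pieces of the same region. At E7.5 (headfold stage) the anterior region (A) was on 3 arrays, with 2 for the posterior (P) and 2 for the proximal posterior part (PP). At E8.5 (2-5 somites) the node-streak border (NSB) and the caudal lateral epiblast (CLE) were on 3 arrays each, and the rostral node (RN), anterior streak (St1) and posterior streak (St5) on 2 each. The tail bud was represented by the chordoneural hinge (CNH), on 3 arrays at E11.5 and on 2 at E9.5, E10.5, E12.5 and E13.5, and by the tissue posterior to it (P-CNH), on 2 arrays at E9.5, E10.5 and E11.5. A pool comes from several embryos and a piece holds several cell types. The p-values therefore measure the spread between pools, and fewer cells of a type cannot be told apart from less RNA per cell.

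Cells of the epiblast, the tissue from which the embryo proper forms, express a network of transcription factors centred on Pou5f1 (also called Oct4), Nanog and Sox2. Esrrb, Klf family members and Zfp42 (Rex1) belong to the naive state of the early epiblast, while Utf1 and Pou5f1 stay active as the epiblast becomes primed for differentiation. The network is shut down as the germ layers form, except in primordial germ cells, which lie at the posterior end of the embryo at this time and use several of the same factors.

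Values are log2 intensities, the logarithm of the background-corrected and normalised brightness of a probe, on which a difference of 1 is a doubling. A probe was detected on an array at a detection p-value under 0.01 against the negative-control beads of that array. Between 10814 and 16256 probes were detected per array. The labels name 3 batches of 12 arrays, with 15481 to 16256 detected probes in batch 1, 11062 to 15388 in batch 2 and 10814 to 16241 in batch 3. Batch 1 held both regions of E10.5 and, of E8.5, RN, St1 and St5 entirely, and shared only the NSB with the others, through NSB replicate 3 in batch 3, so differences between batch 1 and the others lean on that array. Differences come from a limma model with a term for each of the 16 regions and for batch, and p-values were adjusted over the 21712 tested probes within each comparison. Calls needed an adjusted p no greater than 0.05 together with a change of 1.5-fold or more, and a gene is represented by its probe with the highest mean intensity. Where no array of a group detected a gene, its fold change is a lower bound. For it, each such array was raised to the lowest log2 intensity detected on that array if its value was lower, and the difference of group means was taken without the batch term.

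The regions were checked against their markers. All 3 node genes (Noto, Shh, Foxa2) were called higher in RN than in the other E8.5 regions, and all 4 posterior streak genes (Bmp4, Tbx4, Isl1, Hand1) were called higher in St5. At E7.5, Otx2 and Six3 but not Hesx1 were called higher in A than in P, and all 4 streak genes (T, Fgf8, Mixl1, Evx1) were called lower. Six3 was detected on 1 of the 7 arrays of E7.5. Of 3 Hox genes of the tail bud, Hoxc10 was called higher in the tail bud than at E8.5, while Hoxa13 and Hoxd13 were not called.

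Pou5f1, the POU-domain factor without which no pluripotent tissue forms, was bright on every array up to E8.5. Its probe ILMN_1252910 read 12.01, 12.10 and 11.60 in A, 12.14 and 12.19 in P, and 12.28 and 12.73 in PP. Over the 12 arrays of E8.5 its lowest value was 10.94, its median 11.63 and its highest 12.25. The values of E7.5 and E8.5 overlapped, and both St5 arrays, at 10.94 and 11.05, lay below the remaining 10 of that stage (11.33 to 12.25). In the E9.5 CNH it read 6.68 and 6.49, in the E9.5 P-CNH 5.24 and 5.57, in the E10.5 CNH 5.41 and 5.85, and behind it, in the P-CNH of the same day, 5.58 and 6.20. It was detected on 4 of these 8 arrays, both of the E9.5 CNH and 1 each of the E10.5 regions, and on none of the 9 arrays from E11.5 to E13.5 (4.49 to 5.58). In the order of region means, the step from St5 (10.99) to E9.5 CNH (6.58) was 4.41, with no array in between, whereas the 7 regions from E10.5 P-CNH (5.89) down to E13.5 CNH (4.58) each overlapped the next.

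Nanog, the homeodomain factor that secures the pluripotent state, was brightest at E7.5. The probe ILMN_2706623 read 9.82, 9.42 and 10.17 in A, 8.81 and 9.52 in P, and 8.75 and 9.30 in PP. At E8.5 its lowest value was 7.04, its median 7.5 and its highest 8.70. All 7 arrays of E7.5 lay above the 12 arrays of E8.5, the nearest being CLE replicate 1 (8.70) in batch 2. In the tail bud it ranged from 4.64 to 6.44 with a median of 5.14, and was detected on 1 of 17 arrays, E10.5 CNH replicate 1 (5.66). In the order of region means, A, P and PP overlapped, as did CLE with St5 and St1, RN and NSB among themselves, and the 8 tail bud regions each overlapped the next.

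**Figure D1:**
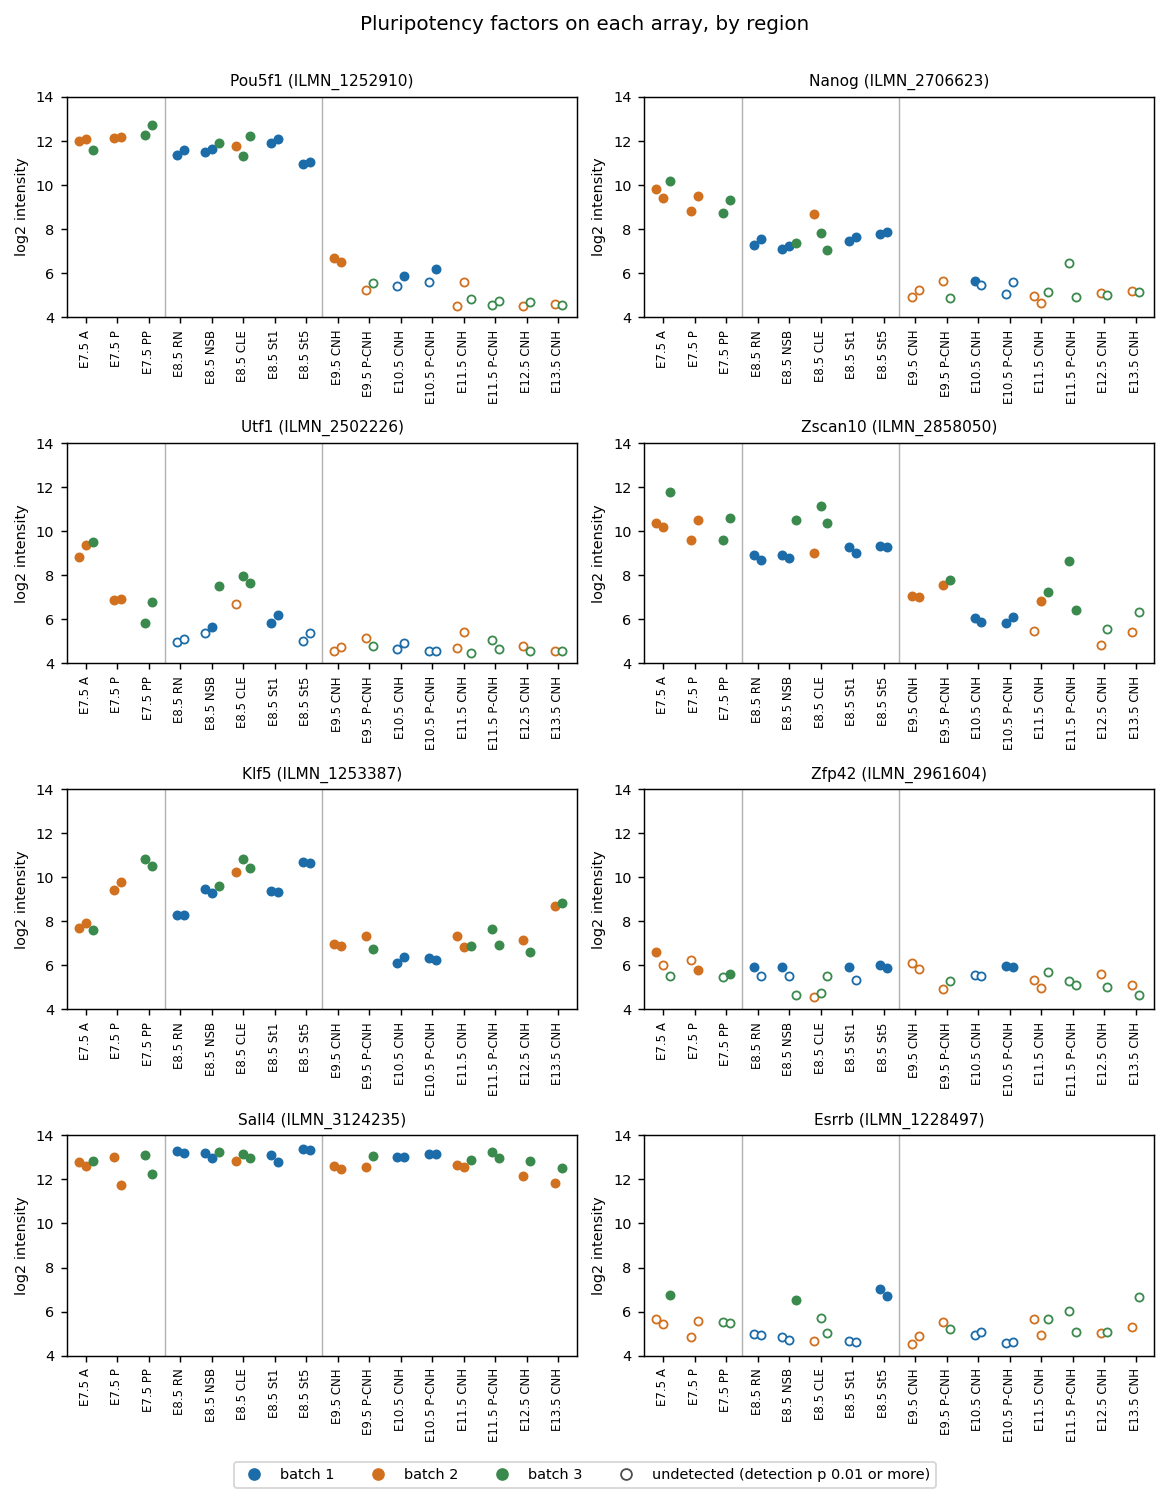
Log2 intensity of the representative probe of each gene (vertical axis) on the 36 arrays, by region (horizontal axis), coloured by batch and open where undetected. Pou5f1 fell from 10.94 or more on all arrays up to E8.5 to 6.68 or less in the tail bud, while Sall4 stayed between 11.74 and 13.36.

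For Pou5f1 and Nanog the promoters are shown, from 250 bases before to 50 after the start in RefSeq (GRCm38.p6). The representative probes of both genes were detected on all arrays up to E8.5 and on few thereafter. The other Nanog probe was detected on 3 arrays, all of E7.5. Zfp42, which stayed near the detection limit, is set beside Pou5f1 and Nanog. The promoter set used held sequences for 6 of the 8 members, with 9 starts, and did not include Klf5 and Sall4. The letters TTTGCAT (an octamer-type motif bound by POU factors), ACAATG (of the Sox type) and GGGCGG (a GC box) were searched on both strands. Of 32851 mouse promoters of the same length, 4.63% hold TTTGCAT, 12.6% hold ACAATG and 35.7% hold GGGCGG. Capitals mark the octamer-type letters, with the Sox-type letters where they follow closely, and the GC box, which reads CCGCCC on the other strand. The windows lie at chr6:122707239-122707538 on the plus strand, chr17:35505782-35506081 on the plus strand and chr8:43306960-43307259 on the minus strand.
Nanog: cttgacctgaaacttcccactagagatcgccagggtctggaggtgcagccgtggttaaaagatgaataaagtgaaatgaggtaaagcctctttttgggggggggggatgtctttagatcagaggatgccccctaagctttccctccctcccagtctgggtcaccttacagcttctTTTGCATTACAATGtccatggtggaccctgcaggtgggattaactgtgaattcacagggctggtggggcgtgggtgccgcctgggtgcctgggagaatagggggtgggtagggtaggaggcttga
Pou5f1: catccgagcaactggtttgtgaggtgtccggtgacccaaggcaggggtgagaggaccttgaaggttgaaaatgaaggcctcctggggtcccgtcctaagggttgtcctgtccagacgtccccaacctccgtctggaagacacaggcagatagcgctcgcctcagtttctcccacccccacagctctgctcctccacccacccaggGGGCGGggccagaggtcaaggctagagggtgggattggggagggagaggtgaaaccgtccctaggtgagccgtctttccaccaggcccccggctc
Zfp42: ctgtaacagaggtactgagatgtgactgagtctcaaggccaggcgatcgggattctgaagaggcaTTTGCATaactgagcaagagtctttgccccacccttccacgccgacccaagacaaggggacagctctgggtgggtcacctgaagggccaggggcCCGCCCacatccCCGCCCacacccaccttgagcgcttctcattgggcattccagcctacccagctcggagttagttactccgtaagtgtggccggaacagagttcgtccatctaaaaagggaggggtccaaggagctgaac
The Nanog window holds TTTGCAT 75 bases before the start, followed after 1 base by ACAATG, an arrangement present in 2 of the 32851 windows, both at Nanog starts. The Zfp42 window holds TTTGCAT 185 bases before the start and CCGCCC 79 and 91 bases before it. The Pou5f1 window holds GGGCGG 45 bases before the start and no TTTGCAT. These are matches of letters and no binding was measured.

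Utf1, a chromatin-bound target of Pou5f1 and Sox2, was highest in A. It read 8.85, 9.39 and 9.51 in A, 6.89 and 6.94 in P, and 5.82 and 6.78 in PP. The 3 A arrays lay above all other arrays of the series. At E8.5 it ranged from 4.95 to 7.96 with a median of 5.72 and was detected on 6 of 12 arrays: CLE replicates 2 and 3 (7.96 and 7.63), NSB replicates 2 and 3 (5.64 and 7.5) and both St1 arrays (5.81 and 6.20). RN (4.95 and 5.09) and St5 (5.03 and 5.40) were undetected, and so were all 17 tail bud arrays (4.47 to 5.41). The 3 highest E8.5 values were all from batch 3, and among them NSB replicate 3 lay above NSB replicates 1 and 2 of batch 1 (5.37 and 5.64).

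Zscan10, a zinc-finger factor that binds alongside Pou5f1 in embryonic stem cells, was detected on 31 arrays. It read 10.39, 10.21 and 11.77 in A, 9.59 and 10.52 in P, and 9.59 and 10.59 in PP. At E8.5 its lowest value was 8.68, its median 9.14 and its highest 11.16, so that the stages overlapped. The E9.5 CNH read 7.08 and 7.03, the E9.5 P-CNH 7.54 and 7.79, the E10.5 CNH 6.04 and 5.89, and the P-CNH of that day 5.85 and 6.09. The E11.5 CNH read 5.46, 6.81 and 7.25 and the E11.5 P-CNH 8.63 and 6.44. Except for E11.5 P-CNH replicate 1, which is among the 5 arrays with the fewest detected probes (12280), no tail bud value exceeded 7.79. All 4 arrays of E12.5 and E13.5 CNH were undetected (4.83 to 6.32).

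Klf5, a Krüppel-like factor of naive pluripotent cells and of many epithelia, was detected on all 36 arrays and differed among regions of the same stage. At E7.5 it read 7.68, 7.93 and 7.61 in A, 9.41 and 9.79 in P, and 10.83 on the higher PP array with a mean of 10.67 over both, 3 levels that did not overlap. At E8.5 the lowest arrays were those of RN (8.28 and 8.27), followed by St1 (9.36 and 9.35) and NSB (9.46, 9.28 and 9.59). CLE read 10.24, 10.83 and 10.42 and St5 10.69 and 10.67, and these regions overlapped at the top of the order together with PP. From E9.5 to E12.5 the tail bud arrays lay between 6.09 and 7.67, with the lowest at E10.5 (6.09 to 6.40). The E13.5 CNH, at 8.72 and 8.85, lay above all other tail bud arrays and above RN.

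Esrrb, an orphan nuclear receptor of naive pluripotent cells, was detected on 4 of 36 arrays. These were both St5 arrays (7.01 and 6.70), A replicate 3 (6.75) and NSB replicate 3 (6.52). The other 32 arrays ranged up to 6.67, the value of E13.5 CNH replicate 2, which had the fewest detected probes of all arrays (10814). Zfp42, a zinc-finger gene used as a marker of naive cells, lay between 4.58 and 6.59 and was detected on 10 arrays spread over 8 regions, from E7.5 to E10.5. Sall4, a zinc-finger factor that also acts in limb and mesoderm, lay between 11.74 and 13.36 on all arrays, with medians of 12.78 at E7.5, 13.18 at E8.5 and 12.82 in the tail bud, and every stage overlapped the others.

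The largest change was at the transition from streak to tail bud. In the mean of the 8 tail bud regions against the mean of the 5 E8.5 regions, 6 of 8 members were called and all 6 were lower, where 12.1% of all tested probes were called in either direction and 5.62% were called lower. The median log2 difference was -2.33 over the members and 0.02 over all tested probes. With the 2 members that were undetected on all tail bud arrays set to their bound, or to 0 where there was none, the members' median was -1.41. Pou5f1, Klf5 and Zscan10 are named by the study on these same arrays, so they are not independent evidence.

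Pou5f1 changed by -6.50 (SE 0.228, adjusted p = 2.68e-15 by limma, 17 tail bud and 12 E8.5 arrays), with all 17 arrays below all 12. Pou5f1 was detected on 4 of 17 tail bud arrays, so the size of its change leans on undetected values. It was -7 to -4.84 in 18 other settings, all of them called. Zscan10 changed by -3.33 (SE 0.379, adjusted p = 1.15e-06), Klf5 by -2.74 (SE 0.192, adjusted p = 5.71e-10) and Nanog by -2.49 (SE 0.318, adjusted p = 5.82e-06). With Nanog detected on 1 of 17 tail bud arrays its value leans on undetected ones, and with these raised to the lowest detected signal it was -1.68 (0.000313). The arrays of both stages did not overlap for Pou5f1, Nanog and Zscan10, and for Klf5 the E13.5 CNH lay above RN. Utf1 was called lower (adjusted p = 2.96e-06) with detection on 6 of 12 arrays against 0 of 17, and no fold change is given because the mean at E8.5 lay below the detection floor of the tail bud arrays. Esrrb was called lower with an adjusted p of 0.0421 at 3 of 12 against 0 of 17 detected arrays, but the call was lost when any of 17 arrays was left out (adjusted p 0.0505 to 0.0855) and in 13 of 17 other settings. These arrays were St5 replicate 1 (0.0689), St1 replicates 1 (0.0621) and 2 (0.0566), NSB 1 (0.0641) and 2 (0.0855), RN 1 (0.062) and 2 (0.0561), PP 1 and 2 (0.0505 each), E9.5 CNH 1 (0.0602), E9.5 P-CNH 2 (0.0759), E10.5 P-CNH 1 (0.0556) and 2 (0.0541), E10.5 CNH 1 (0.0569) and 2 (0.0527), E11.5 CNH 3 (0.0643) and E12.5 CNH 2 (0.0764). For Sall4 the difference was -0.34 (95% interval -0.79 to 0.11, adjusted p = 0.371) and for Zfp42 it was 0.40 (adjusted p = 0.371). The plain means of Zfp42 were 5.41 in the tail bud and 5.53 at E8.5 (2 of 17 and 5 of 12 arrays detected). The positive sign of Zfp42 therefore rests on the batch term.

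Within batches, the same comparison could be made over the regions each batch holds, at the cost of few residual degrees of freedom. In batch 1, with the 4 E10.5 arrays against 8 of E8.5, Pou5f1 differed by -5.75 (adjusted p = 6.35e-11), Klf5 by -3.15 (1.01e-10), Zscan10 by -3.06 (4.25e-10) and Nanog by -2.03 (5.07e-08). In batch 2 the only E8.5 array was CLE replicate 1, which had few detected probes (11062) and no spread of its own, so values are given without p. Pou5f1 differed by -6.59, Klf5 by -2.79 and Zscan10 by -2.82, and Nanog was detected on that array and on none of the 7 tail bud arrays. In batch 3 the adjusted p was 0.00405 for Pou5f1, 0.0226 for Klf5 and 0.0251 for Utf1. Zscan10 (log2 difference -3.74, adjusted p = 0.0585) and Nanog (0.0929, undetected on all tail bud arrays of that batch) were not called there. Utf1 was called in batch 1 too (adjusted p = 0.000115), and Esrrb was called in no batch. Of all 21712 probes, 4068 were called within batch 1 and 386 within batch 3. In batch 1 Esrrb was undetected on all E10.5 arrays, and its difference (adjusted p = 0.000176) fell short of the 1.5-fold cut.

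**Figure D2:**
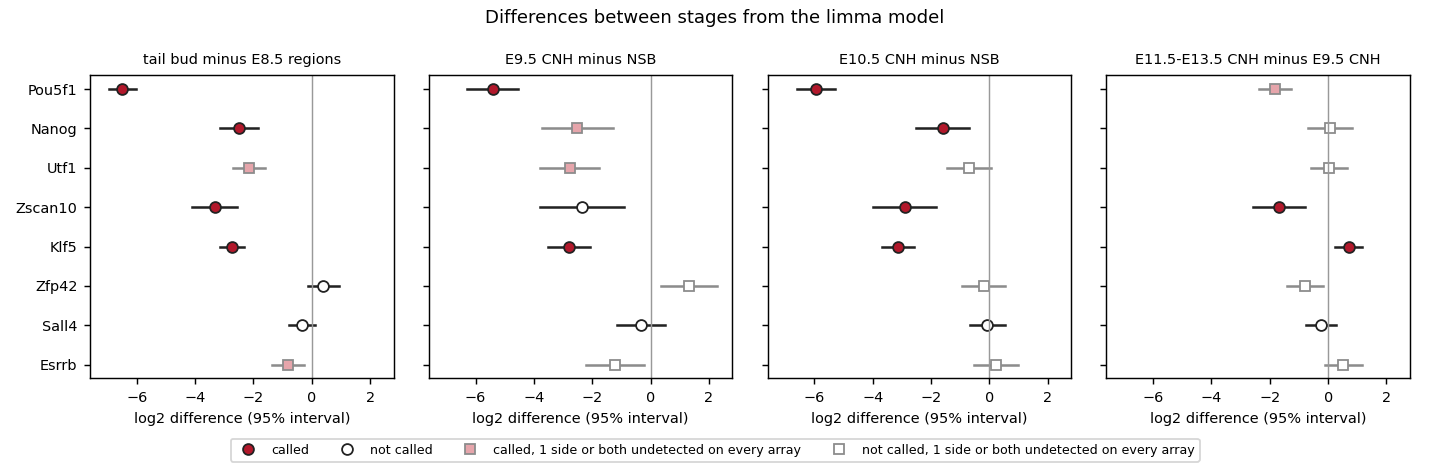
Log2 differences (horizontal axis) of the 8 members in 4 comparisons between stages, with 95% intervals from the limma model, filled where called and square where a side was undetected on all its arrays. Pou5f1 had the largest difference in the 3 comparisons with E8.5.

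The NSB at E8.5 and the CNH of the tail bud both hold neuromesodermal progenitors, cells that give rise to spinal cord and paraxial mesoderm. From NSB to E9.5 CNH, 4 of 8 members were called, all lower, where 5.04% of all probes were called and 3% were called lower. From NSB to E10.5 CNH, 4 of 8 were called, all lower, against 7.14% of all probes called and 3.6% called lower. Of 5 tested genes of gut and simple epithelium, 4 were called lower at E9.5 (median -3.23) and at E10.5 (median -2.69). Of 6 blood genes, 3 were called higher at each stage. The part of these cells in the members' values was not tested. With the batch term, the NSB side is replicate 3 alone at E9.5 and replicates 1 and 2 alone at E10.5: the E9.5 values did not move without replicate 1 or 2, and the E10.5 values did not move without replicate 3. Pou5f1 differed by -5.41 (SE 0.418, adjusted p = 7.25e-09) at E9.5 and by -5.94 (SE 0.313, adjusted p = 4.74e-12) at E10.5. Klf5 differed by -2.80 (adjusted p = 1.2e-05) and -3.13 (1.42e-08). Zscan10 differed by -2.36 at E9.5, which was not called (adjusted p = 0.0519) but was in 8 of 14 other settings, and by -2.90 at E10.5 (0.000542).

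Nanog in the E9.5 CNH was at least 2.04-fold lower than in NSB (0 of 2 against 3 of 3 arrays detected, without the batch term), with an adjusted p of 0.0106 that rests on NSB replicate 3, and the call was lost without E9.5 CNH replicate 1 (0.0671). In the E10.5 CNH its log2 difference was -1.60 (adjusted p = 0.0238, 1 of 2 arrays detected). The call was lost without E10.5 CNH replicate 1 (log2 difference -1.70) or 2 (-1.50), which leaves 1 array. It was also lost without NSB replicate 1 (-1.65, adjusted p = 0.118) or 2 (-1.54, 0.162), so the difference itself moved little. At E9.5 Nanog was also not called with the BeadChip, the slide that holds 6 arrays, as a fixed block (0.536), with undetected values raised (0.471), after cyclic loess (0.0521), at an offset of 100 (0.074) or without background correction (0.0553). At E10.5 the call was also lost without a filter (0.0504), at an offset of 100 (0.105) or without background correction (0.1). Utf1 was called at E9.5 (adjusted p = 0.000724, 2 of 3 NSB arrays detected against 0 of 2), with no fold change given for the same reason. It rests on NSB replicate 3 (7.5), which lay above replicates 1 and 2 (5.37 and 5.64). That call was lost with cyclic loess (0.146), with the BeadChip as a random block (0.119) and with undetected values raised (0.496), and at E10.5 Utf1 was not called (0.394). Zscan10 at E9.5 was called on leaving out any of 8 arrays, with adjusted p from 0.00887 without E11.5 P-CNH replicate 1 or 2 to 0.0493 without P replicate 1 or 2. The others were A replicate 3 (0.0479), CLE replicates 1 (0.0369) and 2 (0.0337) and E11.5 CNH replicate 1 (0.0348). The median difference of the members was -2.44 at E9.5 and -1.15 at E10.5 (0.07 and -0.01 over all probes), or -0.68 and -1.08 with undetected members at their bound, the latter through a Utf1 bound that rests on NSB replicate 3 of another batch. Batch 1 holds both E10.5 CNH arrays and NSB replicates 1 and 2, and within it the E10.5 values were the same, with adjusted p of 4.89e-09 for Pou5f1, 1.09e-08 for Klf5, 7.09e-08 for Zscan10, 3.87e-05 for Nanog and 0.00898 for Utf1. Of all 21712 probes, 4282 were called within that batch. No batch holds both NSB and E9.5 CNH.

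From E9.5 CNH to the mean of the E11.5, E12.5 and E13.5 CNH, 3 of 8 members were called, where 2720 of all 21712 probes were called. In this comparison 5 of 8 members were undetected on all arrays of at least 1 side. Pou5f1 was at least 1.35-fold lower (adjusted p = 5.01e-05, 0 of 7 against 2 of 2 arrays detected), and lost the call with cyclic loess (0.143), with the BeadChip as a fixed block (0.176) and with undetected values raised (0.537). Zscan10 changed by -1.69 (SE 0.438, adjusted p = 0.0128, 2 of 7 arrays detected) and lost the call without E9.5 CNH replicate 1 (0.134) or 2 (0.122), and in 6 other settings (0.0655 to 0.236). Klf5 rose by 0.70 (SE 0.222, adjusted p = 0.0407). Its high arrays were those of E13.5, while the 5 arrays of E11.5 and E12.5 CNH (6.63 to 7.33) overlapped the E9.5 CNH (6.96 and 6.90). The Klf5 call was lost in 9 of 15 other settings (log2 difference 0.37 to 0.72) and on leaving out any of 16 arrays, namely NSB replicates 1 and 2 (0.0502 each), both replicates of E10.5 P-CNH (0.051), St1 (0.0511), St5 and RN (0.0512) and E9.5 P-CNH (0.0525), E9.5 CNH replicates 1 (0.221) and 2 (0.274), E11.5 CNH replicate 1 (0.0714) and E12.5 CNH replicate 1 (0.136). Zfp42 was undetected on both sides and not called (adjusted p = 0.0794), and was called without A replicate 3 (0.0374) or E13.5 CNH replicate 1 (0.0467). Within batch 2 the adjusted p was 0.00985 for Pou5f1, 0.0459 for Zscan10 (log2 difference -1.60) and 0.0632 for Klf5 (0.72), and 3233 of all 21712 probes were called. The members' median was -0.11 against -0.07 over all probes, and 0.00 with undetected members at their bound.

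Surface ectoderm markers were read in the late CNH. Of 5 such genes, 3 were called higher than in the E9.5 CNH: Krt14 (at least 5.77-fold, adjusted p = 4.65e-05), Trp63 (at least 3.81-fold, 2.56e-07) and Cldn4 (log2 difference 3.02, 0.000438). Grhl3 (-0.44, 3 of 7 against 2 of 2 arrays detected) and Krt15 (1 of 7 against 0 of 2) were not called. The summed signal of the 5 genes was 295.7 and 320.3 in the E9.5 CNH and 4211 and 4261 in the E13.5 CNH, where Krt14 was the most abundant and Krt15 was undetected. It was 454.7 to 1006 in the E11.5 CNH and 1694 and 1618 in the E12.5 CNH, where Klf5 lay at 7.16 and 6.63. Of 6 listed genes of gut and simple epithelium 5 were tested, since no probe carried the symbol Epcam. Of these 5, 3 were also called higher in the late CNH: Cdh1 (at least 2.82-fold, adjusted p = 0.0215), Krt8 (log2 difference 1.31, 0.0221) and Krt18 (1.20, 0.0392). Foxa1 (-0.03) was not called, nor was Sox17, which was undetected on both sides. In the tail bud against E8.5, where Klf5 fell, 4 of these 5 were called lower, namely Sox17, Krt8, Krt18 and Cdh1, with a median difference of -2.28. The summed signal of the list, with Krt8 the most abundant gene on most arrays, was 2313 to 14150 at E8.5 and 543.9 to 3921 in the tail bud. The part of these cell types in the Klf5 values was not tested.

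Blood and endoderm also differed between the stages. Of 6 blood genes, 4 were called higher in the tail bud than at E8.5, and the summed signal was 194 to 9101 at E8.5 and 4144 to 61630 in the tail bud. Of 7 visceral endoderm genes, 3 were called lower (Ttr, Apoa1, Amn) and their sum was 281 to 3077 at E8.5 and 213.3 to 510.5 in the tail bud. The part of these cells in the fall of the members was not tested.

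Before the tail bud formed, the comparison across stages was limited by batch, since most E8.5 arrays were in batch 1 and no E7.5 array was. Between the means of the E8.5 and E7.5 regions, limma called 0 of 8 members, where 3.15% of all probes were called, and 3 members had an unadjusted p under 0.05. This count moved with the settings: it was 3 without a batch term, 4 with batch means removed, 4 with array weights beside the batch term, and 1 or 2 in several others. The calls over all 21712 probes rose too, from 683 to 2992 without a batch term, 1784 with batch means removed and 6037 with array weights. From P to NSB, where the NSB side is again replicate 3 alone, limma called 0 of 8, where 3.07% of all probes were called, with 2 members at an unadjusted p under 0.05. Nanog differed by -1.50 between the stages (adjusted p = 0.0808) and by -1.58 from P to NSB (0.166). The stage difference was called without CLE replicate 1 (0.0213) or 3 (0.0469) or E11.5 P-CNH replicate 1 or 2 (0.0334 each). It was also called in 9 of 17 other settings, among them the BeadChip as a fixed block (-2.98, 0.000491), and the difference from P to NSB was called in 7 of 15, with -3.48 (0.00177) for that block. The other differences between the stages were -0.31 for Pou5f1, -0.28 for Zscan10, 0.54 for Klf5, 0.46 for Sall4 and -1.11 for Zfp42, and the last was called without A replicate 3 (adjusted p = 0.0423). The plain means of Zfp42 were 5.53 at E8.5 and 5.86 at E7.5 (5 of 12 and 3 of 7 arrays detected). With undetected values raised its difference was 0.50, so neither its size nor its sign was stable. For Utf1 the model gave -0.10 where the plain stage means were 5.97 at E8.5 and 7.49 at E7.5, so its value rests on the batch term. For Esrrb the sign was not stable: 0.83 here, -0.16 without a batch term and -0.24 with the BeadChip as a fixed block. The members' median was -0.19 between the stages (-0.05 over all probes) and -0.02 from P to NSB (-0.02 over all probes, and -0.09 with undetected members at their bound). Within batch 2, CLE replicate 1 was the only E8.5 array, so region and stage cannot be told apart there and it has no spread of its own. Klf5 differed by 1.53 and Nanog by -0.69 in that batch, Utf1 was undetected on that array (6.70) and detected on all 4 of A and P, and in batch 3 no member was called. Of 7 visceral endoderm genes, 5 were called lower at E8.5 than at E7.5 (median -2.69). From P to NSB, Apob and Amn were called lower and all 3 node genes higher. The part of these cells in the members' values was not tested.

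Along the E7.5 axis, 2 of 8 members were called between A and P, where 2.73% of all probes were called, and they went opposite ways. Utf1 was higher in A by 2.31 (SE 0.337, adjusted p = 0.000124), on 3 of 3 A arrays, and Klf5 was lower with a log2 difference of -1.81 (SE 0.246, adjusted p = 5.08e-05), also on 3 of 3. In batch 2 alone the values were 2.21 (adjusted p = 0.0162) and -1.80 (0.0161), where 380 of all 21712 probes were called. The median difference of the members was 0.30 (0.04 over all probes), or 0.14 with undetected members at their bound. Between PP and P, limma called 0 of 8 members, where 0.792% of all probes were called, and 1 member had an unadjusted p under 0.05. That member was Klf5, at a log2 difference of 1.21 (SE 0.3), short of a call (adjusted p = 0.0615). Calls appeared without CLE replicate 1 (0.0238) or 2 (0.0324), E11.5 P-CNH replicate 1 or 2 (0.0298 each) or A replicate 3 (0.0459). Both PP arrays were in batch 3 and both P arrays in batch 2, and PP had the highest summed signal of visceral endoderm genes (37660 and 17970, against 10760 and 6066 in P, with Ttr the most abundant in PP), with Afp and Rbp4 called higher. Their part in the Klf5 values was not tested.

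Within E8.5, the posterior streak stood out for Esrrb and Klf5. In St5 against the mean of the other 4 regions, 2 of 8 members were called, both higher, where 5.47% of all probes were called. Esrrb was called higher (adjusted p = 2.4e-05), with 2 of 2 St5 arrays and 1 of 10 others detected. Its log2 difference of 2.37 leans on values below detection and was 0.96 to 2.44 in 15 other settings, all of them called. Klf5 was higher by 1.37 (SE 0.233, adjusted p = 0.00035), although the 3 CLE arrays reached the same level. Within batch 1, which has no CLE, Esrrb was detected on 2 of 2 against 0 of 6 arrays (adjusted p = 6.34e-08), for which no fold change is given, and Klf5 differed by 1.68 (2.69e-07). Pou5f1 differed by -0.63 in St5 (adjusted p = 0.314) and by -0.69 within batch 1, where it was called (0.00967). Of all 21712 probes, 2966 were called in St5 within batch 1, and 1523 in RN. In RN, 1 of 8 members was called, where 2.25% of all probes were called: Klf5 was lower with a log2 difference of -1.63 (SE 0.233, adjusted p = 8.75e-05), and by -1.53 (1.81e-06) within batch 1. Foxa1 and Krt8 of the gut and simple epithelium list and the blood genes Hbb-y, Hbb-bh1 and Hba-x were called higher in RN. The part of these cells in the Klf5 value was not tested. In CLE, limma called 0 of 8 members, where 1.01% of all probes were called, and 2 had an unadjusted p under 0.05, Klf5 (0.81, adjusted p = 0.649) and Esrrb (0 of 3 CLE arrays detected, adjusted p = 0.12). The CLE arrays were in batches 2 and 3, apart from all of RN, St1 and St5. The 3 comparisons share the E8.5 arrays. The members' medians were 0.34 in St5, -0.12 in RN and -0.03 in CLE (-0.00, -0.03 and 0.01 over all probes).

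Some genes listed as markers of primordial germ cells were also higher in St5. Of these, Ifitm3 and Kit were detected on all 36 arrays of the series and Dnd1 on 33, and Dppa3 on 2. Of 10 listed genes 5 were tested, and 4 of the 5 were called higher in St5: Dppa3 (at least 2.71-fold, 2 of 2 against 0 of 10 arrays detected, adjusted p = 2.96e-10), Ifitm3 (log2 difference 2.52, 8.41e-07), Dnd1 (1.91, 0.000277) and Kit (1.06, 0.0154). Their summed signal was 4616 and 4647 in St5, with Ifitm3 the most abundant, and 1325 to 2302 on the other E8.5 arrays, with Kit the most abundant on all 10. Prdm1, Prdm14, Nanos3 and Dazl were undetected on all arrays, and Ddx4 was undetected in St5. Of 8 trophoblast genes 2 were tested, and Rhox9 rose at least 1.11-fold there (2 of 2 against 0 of 10 arrays detected, adjusted p = 0.00154), while Elf5, Tpbpa, Rhox6, Prl3d1 and Gcm1 were undetected on all arrays. Esrrb was detected as well on A replicate 3 and NSB replicate 3, where Dppa3 was undetected. The part of germ cells or trophoblast in the Esrrb values was not tested.

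**Figure D3:**
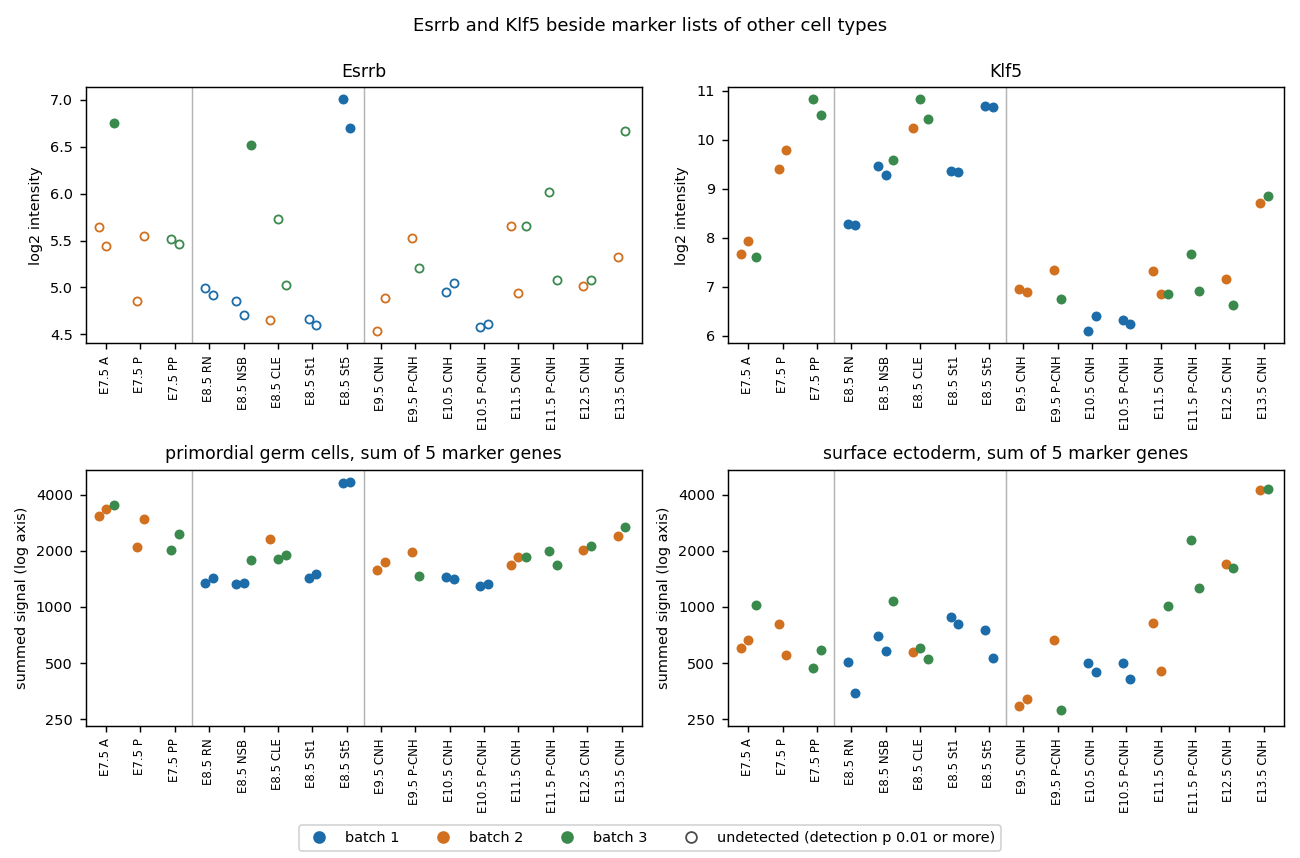
Esrrb and Klf5 (log2 intensity, upper panels) and the summed signal of 5 marker genes each of primordial germ cells and surface ectoderm (log axis, lower panels) on the 36 arrays, by region, coloured by batch and open in the upper panels where undetected. Esrrb had its highest region mean in St5, where the germ cell sum was also highest (4616 and 4647), and the surface ectoderm sum was highest in the E13.5 CNH (4211 and 4261). The germ cell sum includes Ifitm3 and Kit, which were detected on all 36 arrays.

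Within the tail bud, the CNH was compared with the tissue behind it. Over E9.5 to E11.5, limma called 0 of 8 members between P-CNH and CNH, where 0.599% of all probes were called, and 0 had an unadjusted p under 0.05. For the difference of that contrast between E11.5 and E9.5 it called 0 of 8, where 0.0276% of all probes (6 probes) were called, again with 0 at an unadjusted p under 0.05. Klf5 differed by 0.20 and Zscan10 by 0.12 between P-CNH and CNH, and Pou5f1 by -0.38 with detection on 1 of 6 P-CNH and 3 of 7 CNH arrays (unadjusted p 0.0532, and 0.0525 for its change with stage). At E9.5 alone the arrays of the 2 regions did not overlap for Pou5f1, higher in the CNH, or for Zscan10, higher in the P-CNH. Zfp42, higher in the CNH, and Esrrb and Utf1, higher in the P-CNH, did not overlap either but were undetected in both. With 2 arrays per region such gaps arise easily. The share of all probes with such a gap was not counted, so no result about the members is read from it. E9.5 P-CNH replicate 2 was in batch 3 and the other E9.5 arrays in batch 2. Batch-adjusted means of CNH and P-CNH were 6.16 and 5.02 for Pou5f1, but 6.51 and 6.57 for Zscan10. The members' median was 0.06 (-0.00 over all probes).

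Where a gene had several probes, they were compared. The 2 tested Pou5f1 probes followed each other over the 16 regions (Pearson r = 0.969 between region means, which share arrays and batches), and the other probe, ILMN_1217100, changed by -4.99 in the tail bud (adjusted p = 5.16e-06), by -4.40 from NSB to E9.5 CNH (0.0266), and was at least 33.7-fold lower in the E10.5 CNH (0.000136). It was not called from E9.5 CNH to the late CNH (-0.66, adjusted p = 0.621), and read 7.24 on E13.5 CNH replicate 2, where the representative probe was undetected. The other Nanog probe, ILMN_1245732, was detected on 3 arrays, A replicate 2 (7.28) and both of P (7.47 and 7.71), and read 6.11 and 4.70 on the other A arrays. It was called at least 3.23-fold lower in NSB than in P (adjusted p = 0.00496), at least 3.85-fold lower in PP (0.0126), and lower in A with a log2 difference of -1.41 (0.0344), none of which the representative probe was (adjusted p of 0.166, 0.977 and 0.61). The Nanog probes thus disagreed, with r = 0.675, and the E7.5 pattern of Nanog depends on the probe. The other probe was detected on 0 of 12 E8.5 and 0 of 17 tail bud arrays (log2 difference -0.22, not called). The fall of Nanog from E8.5 to the tail bud therefore rests on the representative probe. The Sall4 probes had r of 0.584, -0.0435 and -0.278, and none was called in any comparison. RefSeq names Nanog-ps1 as a near copy of Nanog, and which of them a probe can bind was not tested.

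**Figure D4:**
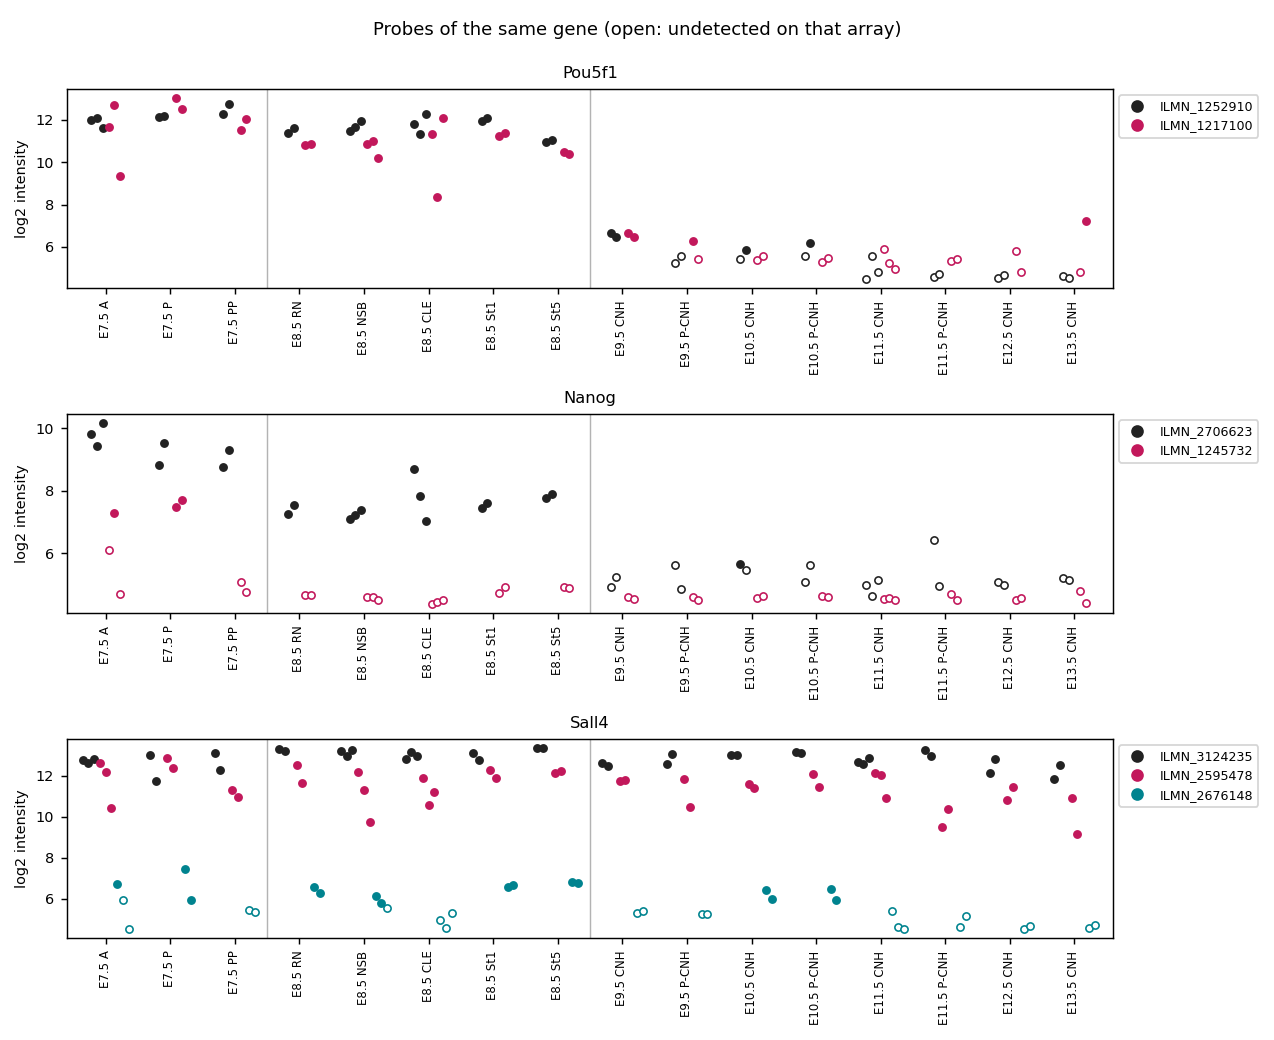
Log2 intensity (vertical axis) of the tested probes of Pou5f1, Nanog and Sall4 on each array, by region (horizontal axis), open where undetected. The 2 Pou5f1 probes drop together at E9.5, while the other Nanog probe is detected on 3 arrays of A and P.

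Related genes were read from lists. Of 23 genes of the wider pluripotency network 15 were tested, and in the tail bud against E8.5 4 were called lower (5.62% of all probes) and 1 higher, with a median difference of -0.57 (0.02 over all probes, and -0.40 with undetected genes at their bound). L1td1, which encodes an RNA-binding protein of embryonic stem cells, changed by -3.81 (SE 0.317, adjusted p = 9.04e-09), from 12 of 12 to 5 of 17 arrays detected. Lin28, an RNA-binding repressor of let-7, changed by -2.68 (adjusted p = 0.00611), the threonine dehydrogenase Tdh was at least 1.84-fold lower (0.000194) and Gbx2 changed by -1.44 (0.00021). Jarid2 was called higher (adjusted p = 0.016) with 3 of 17 against 0 of 12 arrays detected. Nr0b1, Prdm14, Dppa2, Tdgf1, Tcl1 and Mycn were undetected on all arrays, and Tfcp2l1 and Dppa5a, which the table holds under the older symbols Tcfcp2l1 and Dppa5, were missed by name and are not in these counts. From NSB, 1 of 15 was called lower at E9.5 (L1td1, at least 10.8-fold), where 3% of all probes were, and 3 at E10.5 (L1td1 at least 16.3-fold, Tdh at least 2.26-fold and Gbx2 by -1.48), where 3.6% were. In the late CNH, Lin28 changed by -5.71 (adjusted p = 1.66e-05) and the Lin41 gene Trim71 by -3.02 (0.0128), and Tbx3 was at least 1.44-fold higher (0.0179). Lin28 is named by the study on these arrays, so it is not independent evidence.

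Of 10 listed genes of the primed epiblast 9 were tested, and in the tail bud against E8.5 3 were not called and 6 were called lower: Fgf5, Otx2, Pou3f1, Dnmt3b, Nodal and Cdh1. Of all probes, 5.62% were called lower there. The median difference was -1.68 (-1.09 with undetected genes at their bound), and Cdh1 changed by -2.87 (adjusted p = 4.95e-06), Nodal by -2.60 (4.9e-10) and Pou3f1 at least 2.71-fold (2.65e-06). The same 6 genes were called lower from NSB to E9.5 CNH (median -1.71), where 3% of all probes were, and to E10.5 CNH (median -1.47), where 3.6% were. Dnmt3b and Cdh1 are named by the study on these arrays and are not independent evidence. Between E7.5 and E8.5, Otx2 changed by -3.70 (adjusted p = 7.43e-08) and Nodal rose by 1.83 (0.000196), and the other 7 were not called, where 3.15% of all probes were called. Of 12 paralogs of the members 11 were tested, and in the tail bud Sall1 (0.89, adjusted p = 0.0348) and Sall3 (0.65, 0.00111) rose and Pou3f1 fell, with a median of 0.02. In that comparison 12.1% of all probes were called. Among the Klf paralogs, Klf2, Klf3, Klf4 and Klf6 were not called in the tail bud, and whether Klf5 differs from them was not tested.

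**Figure D5:**
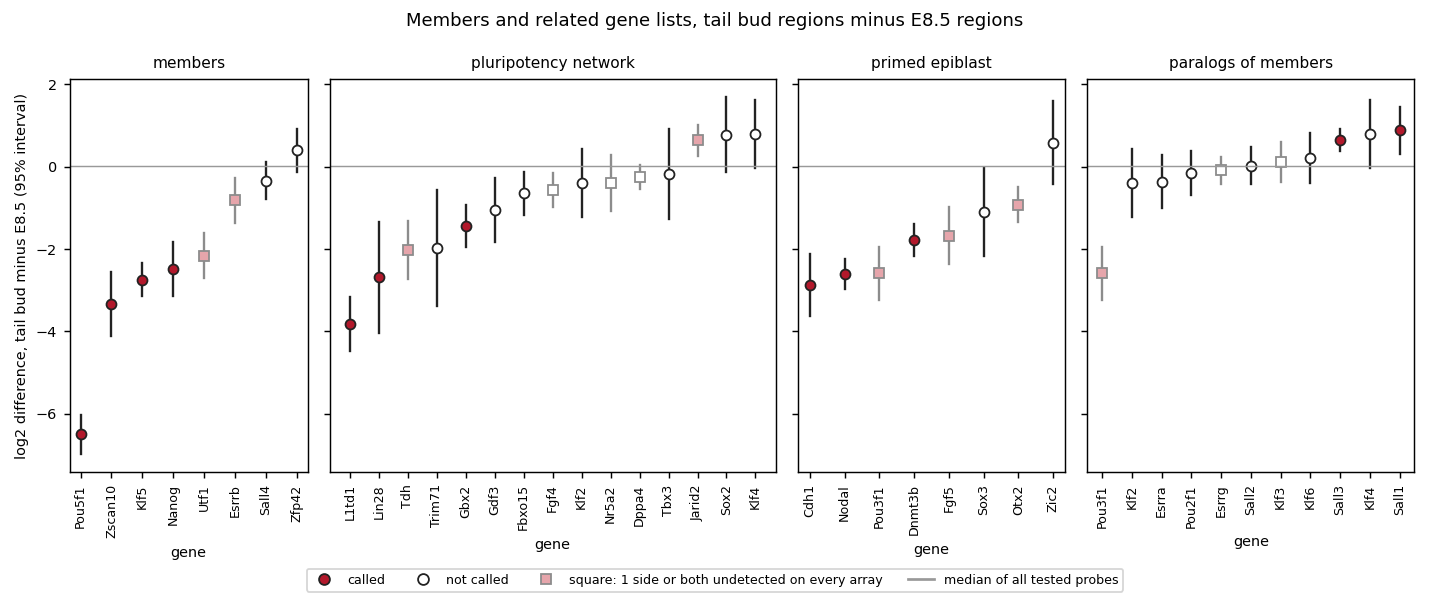
Log2 difference between tail bud and E8.5 regions (vertical axis) with its 95% interval for the 8 members and the reported genes of 3 lists (horizontal axis), from the limma model, filled where called and square where a side was undetected on all its arrays. Of the members 6, of the network 4, of the primed epiblast list 6 and of the paralogs 1 were called lower.

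The same lists were read at other positions. In A against P, Gbx2 was lower with a log2 difference of -3.32 (adjusted p = 2.62e-07), Otx2 (2.47), Fgf5 (2.11) and Pou3f1 (1.69) were higher, and Nodal was at least 3.07-fold lower. In PP against P, Tdh was higher by 2.64 (adjusted p = 0.0149), while Otx2 (-3.38), Pou3f1 (-2.34) and Nodal (-1.87) were lower. In St5, where Esrrb and Klf5 were higher, Tbx3 was higher by 5.11 (adjusted p = 8.62e-06) and Dppa4 was called higher with 1 of 2 against 0 of 10 arrays detected (0.000468). In the same region Sox2 was at least 3.12-fold lower (adjusted p = 0.00237) and Gbx2 (-1.78, 0.000291) and Nodal (-2.36) were lower. In RN, Nodal (3.79), Pou3f1 (1.86), Fgf5 (1.75) and Otx2 (1.25) were higher. In P-CNH against CNH, Gbx2 (-0.89, adjusted p = 0.0422) was lower, and Nodal (0.0352) was called lower with 0 of 6 against 3 of 7 arrays detected.

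For each member called between stages, the most alike genes were ranked by Pearson r of batch-adjusted means over the 16 regions. The ranking was among 18558 probes detected on all arrays of at least 1 region. This is a description over regions that share batches. For Pou5f1 they were Ldhc (0.988), 7420416P09Rik (0.986), Sez6l2 (0.98), Trh (0.977) and Rffl (0.973), and for Nanog Slc39a4 (0.969), Ldhc (0.968), Foxh1 (0.968), L1td1 (0.965) and Dppa5 (0.962). Utf1 was nearest Zfp36l3 (0.948), Pcsk1n (0.945), Asphd1 (0.939), Pdlim2 (0.938) and Acaa1b (0.926), and Zscan10 nearest Mtmr14 (0.975), Sult4a1 (0.971), Lrp11 (0.969), Jakmip1 (0.969) and Hspbap1 (0.965). Klf5 was nearest Lad1 (0.952), Ccdc3 (0.935), Spint1 (0.929), Fah (0.919) and Dsg2 (0.906). Esrrb was nearest Fli1 (0.933), Mal (0.922), Rasip1 (0.898), 9430029K10Rik (0.886) and Shank3 (0.882). Among the members, r with Pou5f1 was 0.95 for Zscan10, 0.93 for Nanog, 0.82 for Utf1 and 0.78 for Klf5, and 0.31 for Sall4, 0.29 for Esrrb and 0.04 for Zfp42. Esrrb was detected on 4 arrays and Zfp42 on 10, so their r rests largely on undetected values.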

How the data were processed

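Members and lists were chosen with earlier results of these data known. The deposited table held non-normalized probe intensity values and detection p-values for 45281 probes on 36 arrays, which the submitters' processing notes credit to lumi (version not stated). Intensities were corrected and normalised with neqc in limma 3.58.1 (R 4.3.3; offset 16, negative controls inferred from the deposited detection p-values), giving log2 values. The 21712 probes detected (p under 0.01) on at least 1 array were fitted with a term per region and per batch (residual degrees of freedom 18, prior 3.85), the batch term standing in for a prior batch correction. Tests were moderated t-tests, two-sided, adjusted by Benjamini and Hochberg within each of 13 comparisons. Signal over background was 2.17 to 12.9 per array. Genes named in the text are the members, genes of the lists, which cover the wider network, primed epiblast, paralogs, region markers and markers of other cell types, and the 5 genes most alike to a member. A gene of the primed epiblast list entered the tests, counts and medians and is not reported here. The code was tested on simulated data. Alternatives covered background, normalisation, batch, BeadChip, filter, covariate, array weights, replicate number, probe and left-out arrays. Raising undetected values, leaving out the 5 arrays with the fewest detected probes, batches over the regions they hold and the BeadChip as a block within batch 1 were chosen after seeing the data. Python 3.11.15, pandas 2.3.3 and matplotlib 3.10.9 were used for promoters and figures.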

Additional observations from a re-analysis of the deposited data

How the results depend on the processing

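Pou5f1 and Klf5 kept their calls in the tail bud, E9.5 and E10.5 comparisons in every setting. Of 1776 values of single members under alternatives, 1609 kept direction and call, 86 were weaker, 68 stronger and 13 reversed. For the changes below, the cause was not tested.

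Esrrb from E7.5 to E8.5 (0.83) was -0.16 without a batch term, -0.24 and -0.26 with BeadChip as a fixed or random block, -0.72 within batch 2 and -0.17 within batch 3. Esrrb was 0.18 at E9.5 with BeadChip fixed, and 0.52 in the tail bud within batch 2, undetected on both sides. Zfp42 with undetected values raised was 0.42 from P to NSB, 0.50 from E7.5 to E8.5, -0.29 at E9.5 and 0.00 in the late CNH, where BeadChip fixed gave 0.36. The other Nanog probe gave 0.00 at E10.5.

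Member counts moved most between E7.5 and E8.5. The 0 called became 1 with no background correction, offset 100, BeadChip fixed or the covariate, 2 with BeadChip random or without 5 arrays, 3 without a batch term or within batch 2 (2 of these undetected on its only E8.5 array), and 4 with batch means removed or arrayWeights (left-out arrays 0 to 1). From P to NSB, 0 became 1 without a batch term, with BeadChip fixed or random or arrayWeights, and 2 with batch means removed or without 5 arrays (left-out arrays 0 to 0). In PP, 0 became 1 with no background correction, offset 100, loess, no batch term, the covariate, arrayWeights or without 5 arrays (left-out arrays 0 to 1). In CLE, 0 became 1 with BeadChip random, arrayWeights or without 5 arrays, 2 without a batch term and 3 with batch means removed. The 4 at E9.5 became 7 with arrayWeights (left-out arrays 3 to 5). With arrayWeights 6458 of all probes were called at E9.5, in place of 1095. The 3 in the late CNH became 1 with no background correction, offset 100, loess, no batch term or BeadChip random, and 0 with undetected values raised (left-out arrays 1 to 4). The 6 in the tail bud became 3 within batch 3 (left-out arrays 5 to 6).

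Replicate numbers did not pair the samples over all regions: differences between replicates 1 and 2 correlated between regions at -0.663 to 0.606 (median 0.0298, 37 of 120 pairs over 0.1), and in batch 1, where the number is a shared BeadChip, at -0.0804 to 0.391 (median 0.183, 8 of 15). A block for it within batch 1 changed no call of a member. With the replicate block, 1 member was called between E7.5 and E8.5 (0 without), and 1040 probes in place of 683. The block ended the calls of Esrrb in the tail bud (adjusted p 0.0748) and Klf5 in the late CNH (0.0701), gave Zfp42 calls at E8.5 (0.0497) and E9.5 (0.05), and changed no other.

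Probe counts moved too (main value first). E8.5 against E7.5, 683: no batch term 2992, batch means removed 1784, BeadChip fixed 1769, random 1115, no filter 1420, arrayWeights 6037, raised 252, without 5 arrays 3871, batch 2 4180, batch 3 56, left-out arrays 378 to 1064. Tail bud, 2635: 5329 without batch term, 4437 BeadChip random, 4403 arrayWeights, 1728 raised, 4228 without 5 arrays, 4068, 5742 and 386 within batches 1 to 3. NSB against P, 667: loess 330, no batch term 1997, no filter 1341, arrayWeights 2724, raised 275, without 5 arrays 3918. E9.5, 1095: loess 693, no batch term 1775, BeadChip fixed 1798, no filter 1872, arrayWeights 6458, raised 481, without 5 arrays 4097, left-out arrays from 621. E10.5, 1550: batch 1 4282, arrayWeights 4334, without 5 arrays 3217, left-out arrays from 919. Late CNH, 2720: offset 100 1684, no batch term 1665, BeadChip fixed 1522, random 519, arrayWeights 5613, raised 1383, without 5 arrays 5439, left-out arrays from 812. A, 593: batch 2 380, arrayWeights 1402, raised 322, without 5 arrays 1829, left-out arrays from 387. PP, 172: no background correction and batch means removed 114, loess 510, no batch term 373, BeadChip fixed 46, random 79, covariate 294, raised 69, without 5 arrays 542, left-out arrays 43 to 497. St5, 1187: arrayWeights 2912, without 5 arrays 2309, batch 1 2966, left-out arrays from 615. RN, 488: arrayWeights 1475, without 5 arrays 1101, batch 1 1523, left-out arrays from 260. CLE, 220: loess 38, no batch term 3132, batch means removed 809, BeadChip random 726, no filter 538, arrayWeights 407, raised 19, without 5 arrays 1982, batch 3 0, left-out arrays from 130. P-CNH, 130: BeadChip fixed 211, without 5 arrays 312, batches 560, 76 and 0, left-out arrays 85 to 197. Its change with stage, 6: 0 with arrayWeights, 213 with BeadChip fixed, 131 without 5 arrays, 2 (no background correction, raised), 3 (loess, no batch term, BeadChip random), 10 (covariate), 13 (batch means removed), 27 (no filter), 2 to 325 with left-out arrays.

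Batch 1 is tied to the others by NSB replicate 3 alone, so comparisons between batch 1 and the others cannot be estimated without it. The iteration of arrayWeights stopped before its tolerance. ComBat itself was not run.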
